A study of Mus musculus with 24 samples.

Results

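The 8 genes described here, *Pck1*, *G6pc*, *Fbp1*, *Ppargc1a*, *Pcx*, *Sds*, *Tat* and *Got1*, serve or regulate gluconeogenesis, the making of glucose from lactate, glycerol and amino acids. They were chosen by symbol from the 24411 genes counted in each of 24 mouse liver RNA-seq libraries, and all 8 passed the filter on low counts in every comparison. The liver makes glucose during fasting. Pyruvate carboxylase (*Pcx*) turns pyruvate into oxaloacetate, phosphoenolpyruvate carboxykinase (*Pck1*) turns oxaloacetate into phosphoenolpyruvate, fructose-1,6-bisphosphatase (*Fbp1*) acts further along the route, and the catalytic subunit of glucose-6-phosphatase (*G6pc*) frees glucose at its end. Serine dehydratase (*Sds*), tyrosine aminotransferase (*Tat*) and cytosolic aspartate aminotransferase (*Got1*) bring carbon in from amino acids or move it between compartments, and the coactivator *Ppargc1a* raises transcription of this programme. Glucagon, through cAMP and CREB, and glucocorticoids are known to induce it, and insulin, through FOXO1, to repress it.

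All mice were males of 2.5 months, fasted for about 16 h. *E2f7* and *E2f8* are a pair of atypical E2F repressors needed for hepatocytes to become polyploid, and the knockouts carried loxP sites in both genes and the R26R-mTmG reporter. In the HKO cohort, 3 floxed mice received AAV8-TBG-Cre at 2 months of age (HKO), in which the hepatocyte promoter TBG drives Cre, and 3 floxed mice received AAV8-TBG-Null (Null). In the LKO cohort, 4 mice with *Alb*-Cre, active in liver cells from before birth, were the liver knockouts (LKO) and 4 Cre-negative littermates, labelled WT, the controls. By design the deletion is lifelong in LKO and adult in HKO, and the strain background was mixed, mostly FVB. The mice taken at 0 h were fasted too and got no drug. The remaining mice of the LKO cohort received 300 mg/kg acetaminophen (APAP), a drug whose overdose kills pericentral hepatocytes, and were taken 12, 24, 48, 72 or 96 h later as 1 pooled library of 3 mice per genotype and time. Food after injection and the time of day were not given in the sources used here, so hours since APAP, feeding, time of day and pooling cannot be told apart in comparisons with 0 h.

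The libraries held 12665686 to 19499897 reads on genes, so that 3 reads were worth 0.154 to 0.237 CPM (reads scaled to a common library size). All 7 hepatocyte markers examined were present, with summed levels between 59416 and 151151 CPM. The count of *E2f8* covers the whole gene, including exons outside the deletion, and does not check the knockout. It was 15.2 to 26.4 CPM in the Null mice and 30.7 to 83.9 CPM in the mice labelled HKO, and 11.6 to 18.7 CPM in controls against 17.6 to 34.2 CPM in LKO at 0 h. Over the 5 pairs of pools it was called higher in LKO (log2 fold change 1.53, SE 0.21, adjusted p = 0.0236 by edgeR's quasi-likelihood test with Benjamini-Hochberg adjustment). The study assessed the deletion by other means, among them the reporter, which were not analysed here, and groups are named below by their labels.

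In the GRCm38 build of the mouse genome (GENCODE vM21 annotation), *Pck1* spans chr2:173153048-173159273 and *G6pc* spans chr11:101367561-101377903, both on the plus strand. *Fbp1* (chr13:62864753-62888282), *Ppargc1a* (chr5:51454250-51567726) and *Got1* (chr19:43499752-43524605) lie on the minus strand, and *Pcx* (chr19:4510472-4621752), *Sds* (chr5:120476526-120483932) and *Tat* (chr8:109990437-109999803) on the plus strand. The counts are of reads on exons. An exon of *Sds* overlaps one of *Plbd2* on the other strand, and since the counts disregard strand, reads there could not be assigned. *Sds* levels are therefore uncertain by that share.

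The 250 bases before the RefSeq transcription start are shown for *Pck1* and *G6pc*. Among the genes described here, both showed the largest falls after APAP when the pools of both genotypes were fitted together. In *Pck1* (chr2:173152823-173153072, plus strand, GRCm38.p6) the capitals mark TACGTCA, a form of the cAMP response element. In *G6pc* (chr11:101367466-101367715, plus strand, GRCm38.p6) they mark, from left to right, TGTTTTG (a forkhead-type motif), TGACCT (the reverse complement of the nuclear receptor core AGGTCA) and TATAAA.

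Pck1: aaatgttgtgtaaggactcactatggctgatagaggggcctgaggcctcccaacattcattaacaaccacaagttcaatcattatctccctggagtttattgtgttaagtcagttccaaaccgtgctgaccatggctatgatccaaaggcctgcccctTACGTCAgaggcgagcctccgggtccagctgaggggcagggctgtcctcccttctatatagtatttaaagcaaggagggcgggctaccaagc

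G6pc: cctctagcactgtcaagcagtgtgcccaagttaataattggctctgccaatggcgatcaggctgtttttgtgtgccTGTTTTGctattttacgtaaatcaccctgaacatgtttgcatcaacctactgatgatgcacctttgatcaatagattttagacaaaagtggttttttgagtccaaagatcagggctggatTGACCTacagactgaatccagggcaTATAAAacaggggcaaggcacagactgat

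TACGTCA began at position -92 from the start of *Pck1*, and 1.27% of 32851 RefSeq windows of 300 bases hold it on either strand. In *G6pc*, TGTTTTG began at position -174, the AGGTCA match at -54 and TATAAA at -29, and these motifs occur in 6.28%, 16.3% and 13.6% of windows. The search on both strands also covered GACGTCA (another form of the cAMP element), a forkhead core (TGTTTAC), a glucocorticoid receptor core (TGTTCT) and the short cAMP core CGTCA. The last of these lies within TACGTCA and within GACGTCA. Of the members with a window, *Fbp1* and *Tat* held none of the 8 motifs, *Ppargc1a* held CGTCA, and *Got1* and a second start of *Pcx* held AGGTCA. These are matches of letters, not shown binding sites. The GENCODE starts of *Pck1* and *G6pc* both lie within the printed stretches, upstream of the RefSeq starts.

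Per kilobase of exon, the members differed widely in level. Over the 14 mice at 0 h, *Pck1* had the highest median at 1534 CPM per kb, which ranked 29 of 23334 genes, followed by *Tat* at 1157 and *Fbp1* at 626. *G6pc* (267), *Sds* (225), *Pcx* (176) and *Got1* (164) formed a middle group whose ranges over mice overlapped. *Ppargc1a*, a regulator and not an enzyme, had a median of 3.47 CPM per kb, within a range of 1.55 to 5.80. *Pck1* also overlapped with *Tat* in its range (1018 to 2300 against 657 to 2840).

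In fasted livers without APAP, the HKO cohort asks whether a deletion of *E2f7* and *E2f8* aimed at adult hepatocytes, with ploidy already set, alters these genes. *Tat*, the first step of tyrosine breakdown, was 5587, 4752 and 3339 CPM in the 3 Null mice and 2672, 1579 and 1644 CPM in the 3 mice labelled HKO. The groups did not overlap, and the log2 fold change was -1.20 (SE 0.24, adjusted p = 0.0564 by edgeR's quasi-likelihood test with Benjamini-Hochberg adjustment over all genes, used throughout). Genes were called at an adjusted p under 0.05 with a fold change of at least 1.5, so *Tat* missed the call. It was called by DESeq2, by both strand-specific counts and without Null replicate 3 or HKO replicate 1, the mouse with the highest *Tat* of its group.

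*Pck1*, the classic fasting-induced enzyme, was 7135, 7887 and 7047 CPM in Null mice and 5421, 4467 and 5097 CPM in mice labelled HKO. These groups did not overlap either, with a log2 fold change of -0.54 (SE 0.13, adjusted p = 0.0876). *G6pc* was close in both: 576, 633 and 582 CPM in Null against 565, 390 and 655 CPM (log2 fold change -0.14, SE 0.17, adjusted p = 0.815). The difference between *Pck1* and *G6pc* was not tested.

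Of the 8 members, 0 were called between mice labelled HKO and Null by edgeR, against a background of 0.96% of genes tested, while 5 had an unadjusted p under 0.05, as did 12.9% of genes tested, and DESeq2 called 1, *Tat*, among 331 genes. All 8 log2 fold changes were below 0, with a median of -0.49, beside 0.01 over all genes tested. In 5 members (*Pck1*, *Fbp1*, *Ppargc1a*, *Pcx* and *Tat*) every mouse labelled HKO was below every Null mouse, a pattern found for 10.1% of genes tested. *Fbp1* was 1379 ± 71.0 CPM in Null and 1108 ± 66.2 CPM in HKO (SD, n = 3 each), and *Ppargc1a* 37.1 ± 1.24 against 27.0 ± 5.11 CPM. *Sds* had the second-largest shift (log2 fold change -0.96, SE 0.35, adjusted p = 0.287) with overlapping groups, from 360 to 727 CPM in Null and 152 to 424 CPM in HKO. *Pcx* (log2 fold change -0.20, adjusted p = 0.545) and *Got1* (log2 fold change -0.65, adjusted p = 0.391) were not called. HKO replicate 1 had the highest *Pck1*, *Fbp1*, *Pcx*, *Sds* and *Tat* of its group, and without it *Pck1*, *Sds* and *Tat* were called, among 297 genes in all against 119 with it.

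*Clock* genes, whose transcripts cycle over the day, moved in the same comparison. Of 12 tested, 1 was called higher and 6 lower in mice labelled HKO, and the summed level of the list was 917 to 1016 CPM in Null and 412 to 594 CPM in HKO. *Usp2* fell by 3.53 on the log2 scale, *Dbp* by 2.70 and *Per3* by 2.40, while *Arntl* rose by 2.24. The calls of *Usp2* and *Dbp* were lost without Null replicate 1 or 2 (adjusted p = 0.0722 and 0.0748 for each), and that of *Usp2* also without HKO replicate 2 (adjusted p = 0.053). The time of day at which the mice were taken was not given, and the part of the clock in the *Pck1* and *Tat* values was not tested. The summed level of 6 glucocorticoid-responsive genes was 686 to 1426 CPM in Null and 522 to 1209 CPM in HKO, with a median log2 fold change of -0.61.

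**Figure D1:**
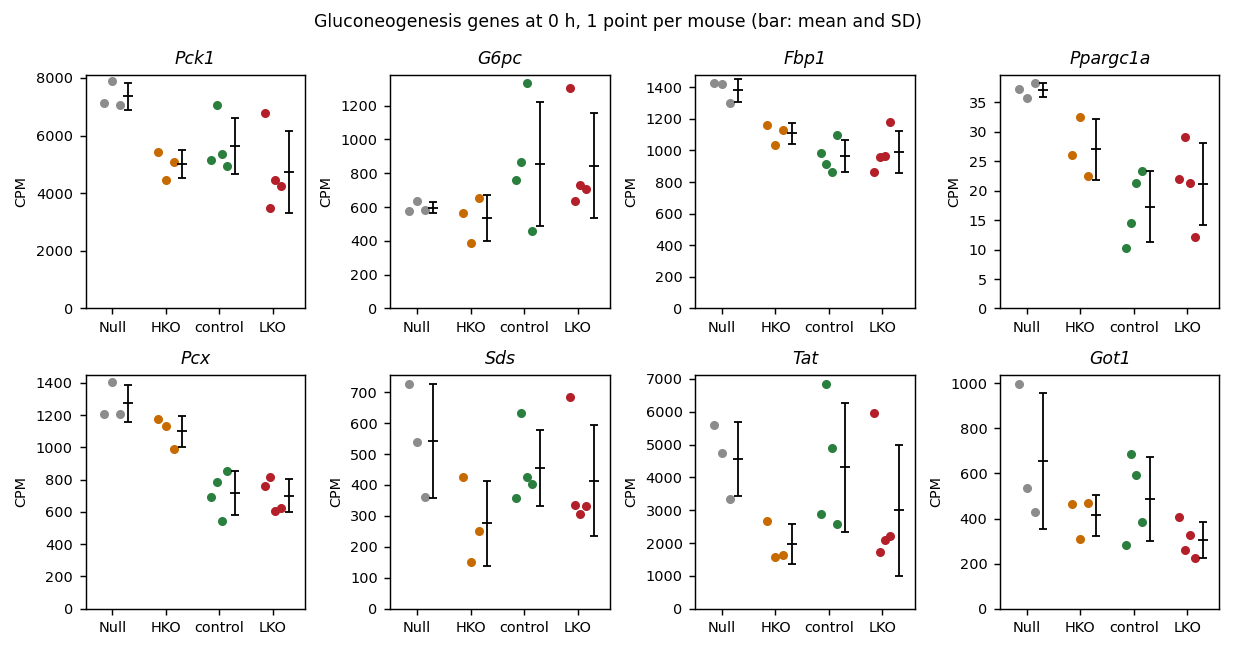
Levels in CPM of the 8 genes in each fasted mouse without APAP, with 1 point per mouse and the mean and SD of each group as a bar beside the points, on axes from 0. All 3 mice labelled HKO lie below all 3 Null mice for *Pck1*, *Fbp1*, *Ppargc1a*, *Pcx* and *Tat*, and 1 LKO mouse stands far above the other 3 for *G6pc*, *Sds* and *Tat*.

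In the LKO cohort at 0 h, whose knockouts were designed to lose both genes before birth, none of the 8 genes was called by edgeR or DESeq2, and 1, *Got1*, had an unadjusted p under 0.05, as did 2.83% of genes tested. The background was 0% of 12426 genes by edgeR and 3 genes by DESeq2. *Pck1* was 5156, 7055, 5362 and 4946 CPM in controls and 6769, 3490, 4453 and 4247 CPM in LKO (log2 fold change -0.24, SE 0.21). *G6pc* was 759, 866, 1336 and 458 CPM in controls and 1304, 635, 732 and 709 CPM in LKO (log2 fold change -0.01, SE 0.31). The ranges of both genes overlapped widely. *Got1*, which moves aspartate carbon in the cytosol, had the lowest ratio, 487 ± 186 CPM in controls and 306 ± 79.9 CPM in LKO (SD, n = 4 each, log2 fold change -0.67, SE 0.28, adjusted p = 0.999).

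The LKO mouse numbered 1 stood apart from the other 3. Its *Tat* level was 5960 CPM where the others had 1722, 2089 and 2212 CPM, and its *Sds* level was 684 CPM where the others had 307 to 336 CPM. This mouse also had the lowest summed hepatocyte marker level of its group (59416 CPM) and the highest summed macrophage marker level (326 CPM against at most 204 CPM in controls). Without it, the log2 fold change of *Tat* between LKO and control moved from -0.52 to -1.09 and that of *Sds* from -0.13 to -0.48, still uncalled (adjusted p = 0.915 for each). The gap between the effects in LKO and HKO was tested over the 14 mice at 0 h: 0 of the 8 members and 0% of 12945 genes were called by edgeR, 0 members had an unadjusted p under 0.05 beside 4.47% of genes, and DESeq2 called 0 members and 21 genes. The log2 difference was 0.68 for *Tat* (SE 0.59) and 0.30 for *Pck1* (SE 0.28), so effects of the size seen in HKO were not resolved from those in LKO.

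After APAP, *Pck1* and *G6pc* were below their levels at 0 h in the pools of both genotypes. *Pck1* was 3490 to 7055 CPM over the 8 mice at 0 h and 1288 to 3330 CPM over the 10 pools, so every pool was below every mouse at 0 h, as for 0.758% of genes tested. In control pools it was 1288, 1342, 2030, 1688 and 2442 CPM at 12, 24, 48, 72 and 96 h. In LKO pools it was 3330, 1591, 2508, 2575 and 1595 CPM at the same times. The controls were thus lowest at 12 h and the LKO pools at 24 and 96 h.

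*G6pc*, the step that releases glucose, was 458 to 1336 CPM in the 8 mice at 0 h. The control pools had 176, 51.5, 187, 99.1 and 264 CPM at 12, 24, 48, 72 and 96 h, and the LKO pools 393, 166, 378, 472 and 396 CPM. All 10 pools were below the range of their own genotype at 0 h, as for *Pck1* and for 1.1% of 14501 genes. At 24 h the control pool stood 3.95 log2 units below its mean at 0 h and the LKO pool 2.28 units below.

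**Figure D2:**
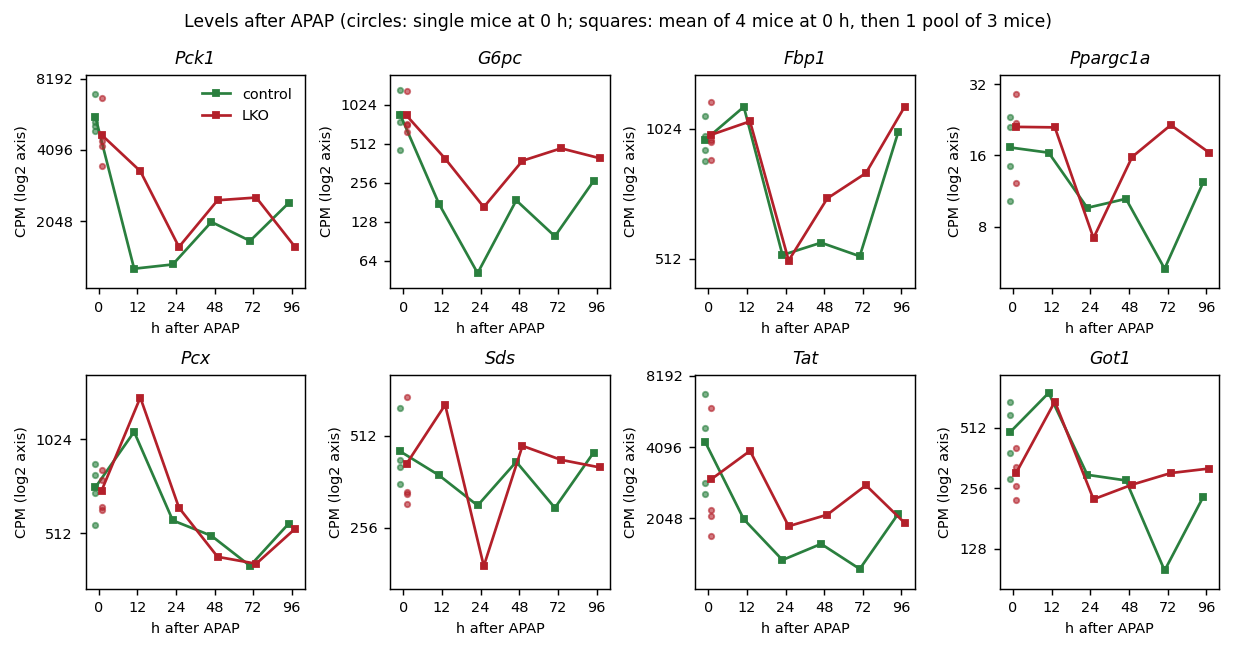
Levels in CPM (log2 axis) of the 8 genes by hours after APAP in control and LKO livers, with single mice as circles at 0 h and squares for the mean of 4 mice at 0 h and then for 1 pool of 3 mice. *Pck1* and *G6pc* lie below their levels at 0 h in all 10 pools, and the LKO squares of *G6pc* lie above the control squares at all 5 times after APAP.

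To test the change that the genotypes share, both pools of a time were compared with the 8 mice at 0 h, with genotype in the fit. The spread behind these SE and p values comes from the mice at 0 h and from genotype by time differences. Spread between mice after APAP was not measured, since each pool is 1 library. At 12 h, 3 members were called against a background of 31% of genes, and they did not move one way: *Pck1* (log2 fold change -1.18, SE 0.35, adjusted p = 0.0143) and *G6pc* (-1.71, SE 0.50, adjusted p = 0.0135) fell and *Pcx* rose (0.81, SE 0.18, adjusted p = 0.00242). *Pcx* was 543 to 855 CPM over the 8 mice and 1081 and 1394 CPM in the control and LKO pools at 12 h, above all of them. *Got1* was also above its range at 0 h in both pools, at 765 and 693 CPM, but was not called (log2 fold change 0.90, adjusted p = 0.065). *Fbp1*, *Ppargc1a*, *Sds* and *Tat* were not called at 12 h.

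At 24 h, 4 members were called lower and 0 higher, against 25.6% of genes called in either direction and 11.7% called lower. *G6pc* fell by 3.17 on the log2 scale (SE 0.55, adjusted p = 0.000677), *Pck1* by 1.83 (SE 0.36, adjusted p = 0.00156), *Fbp1* by 0.93 (SE 0.19, adjusted p = 0.00215) and *Ppargc1a* by 1.15 (SE 0.40, adjusted p = 0.0404). *Fbp1* was 522 and 507 CPM in the control and LKO pools, below the 860 to 1178 CPM of the 8 mice. *Ppargc1a*, at 9.61 and 7.16 CPM, was below the 10.2 to 29.1 CPM of the 8 mice. All 8 members had a log2 fold change below 0 at 24 h, with a median of -1.04, beside 0.00 over all genes tested. *Tat* (log2 fold change -1.18, adjusted p = 0.0948), *Sds* (-0.81, adjusted p = 0.0702), *Got1* (-0.59) and *Pcx* (-0.27) were not called, and the call of *Ppargc1a* was lost under several settings, among them scaling by library size (adjusted p = 0.0701).

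At 48 h, 4 members were called lower against 16.4% of genes in either direction and 6.52% lower: *Pck1* (log2 fold change -1.20), *G6pc* (-1.71), *Fbp1* (-0.64) and *Pcx* (-0.61). At 72 h, 3 were called lower against 16.8% and 5.77%: *Pck1* (-1.29), *G6pc* (-1.82) and *Pcx* (-0.81), while *Fbp1* (-0.57, adjusted p = 0.0428) stayed under the fold limit. With genotype left out of the fit, *G6pc* lost its call at 48 h (-1.59, adjusted p = 0.0657) and at 72 h (-1.57, adjusted p = 0.0674). Scaled by library size, *Fbp1* (-0.44) and *Pcx* (-0.40) were not called at 48 h, and the call of *Pcx* at 48 h was also lost under other filters and the second stranded count (adjusted p = 0.0552 to 0.0605). At 96 h, 0 members were called by edgeR against 0.462% of genes, 2 had an unadjusted p under 0.05, as did 15.4% of genes, and DESeq2 called those 2 among 338 genes, *Pck1* (log2 fold change -1.35, SE 0.35, edgeR adjusted p = 0.0873) and *G6pc* (-1.44, SE 0.48, adjusted p = 0.178). *Fbp1* was back within its ranges at 0 h by then, at 1008 CPM in the control pool and 1150 CPM in the LKO pool.

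Each of these comparisons rests on 2 pools. With 1 pool left out, the lone pool was assumed to vary like the other groups, and some calls were lost with little change in the fold, as for *Pcx* at 72 h (-0.81 with both pools). Without the control pool, the log2 fold changes of the lost calls were -0.61 for *Pck1* and -1.48 for *G6pc* at 12 h and -1.69 for *Ppargc1a* at 24 h. At 48 h they were -1.09 for *Pck1*, -1.55 for *G6pc*, -0.52 for *Fbp1* and -0.75 for *Pcx*, and at 72 h -1.03 for *Pck1*, -1.15 for *G6pc* and -0.80 for *Pcx*. Without the LKO pool they were -1.98 for *G6pc* and 0.59 for *Pcx* at 12 h, -0.82 for *Fbp1* and -0.71 for *Ppargc1a* at 24 h, -1.32 for *Pck1*, -1.88 for *G6pc*, -0.76 for *Fbp1* and -0.48 for *Pcx* at 48 h, and -0.82 for *Pcx* at 72 h. *Ppargc1a* (-1.71), *Fbp1* (-0.88) and *Got1* (-2.14) were called at 72 h without the LKO pool of that time.

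**Figure D3:**
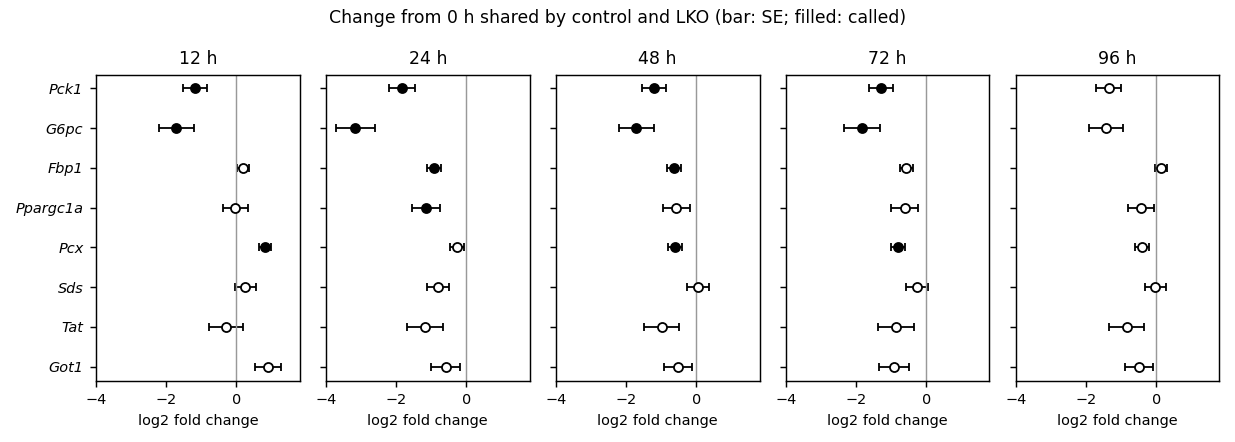
Log2 fold change from 0 h with its SE (bar) for the 8 genes at 12, 24, 48, 72 and 96 h after APAP, from the fit with genotype as a term, where filled points are called and open ones are not. *Pck1* and *G6pc* are filled from 12 to 72 h, *Pcx* is to the right of 0 at 12 h and to the left at the later times, and no point is filled at 96 h.

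Genotypes were compared after APAP over the 5 pairs of pools, with time as a block. *G6pc* was higher in LKO at 5 of 5 times, by 2.23-fold at 12 h, 3.23-fold at 24 h, 2.02-fold at 48 h, 4.76-fold at 72 h and 1.5-fold at 96 h. It was called (log2 fold change 1.32, SE 0.24, adjusted p = 0.0454), where 0.512% of genes were called in either direction, 0.227% were called higher and 8.42% were higher in LKO at all 5 times. The call was near the threshold: it was lost when the pools of 12, 24, 48 or 72 h were left out (log2 fold change 1.10 to 1.42, adjusted p = 0.0946 to 0.132). It was also lost without the time block (log2 fold change 1.20, adjusted p = 0.764), and DESeq2 kept it (adjusted p = 1.38e-06).

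The other 7 members were not called over the 5 pairs. *Tat* was higher in LKO at 4 of 5 times (log2 fold change 0.57, SE 0.21, adjusted p = 0.211), *Ppargc1a* at 4 of 5 (0.56, SE 0.29, adjusted p = 0.343) and *Pck1* at 4 of 5 (0.37, SE 0.25, adjusted p = 0.478). *Pck1* differed most at 12 h, where the LKO pool was 2.59-fold higher, and turned at 96 h to 0.653 of the control level. *Fbp1* and *Sds* were higher in LKO at 3 of 5 times, *Pcx* at 3 of 5 and *Got1* at 2 of 5. All 8 log2 fold changes were above 0, with a median of 0.32 beside -0.02 over all genes tested.

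The genotypes were furthest apart at 72 h, with a median log2 ratio between the pools of 0.91 for the 8 genes. All 8 genes were then below their own range at 0 h in the control pool, as were 32.1% of 14501 genes, and 5 of them were at least 2-fold below their mean at 0 h, as were 8.12% of genes. In the LKO pool at 72 h, 4 of 8 were below their range, beside 25.3% of genes, and 0 were at least 2-fold lower, beside 2.72% of genes. *G6pc* (4.76-fold), *Ppargc1a* (4.05-fold), *Got1* (3.06-fold) and *Tat* (2.26-fold) were at least 2-fold higher in the LKO pool than in the control pool, beside 7.1% of genes. All 8 were higher in the LKO pool, beside 49.4% of genes. *Got1* was 99.5 CPM in the control pool and 305 CPM in the LKO pool. *Pcx* was alike in both, at 402 and 408 CPM. These are single pools, without a test.

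**Figure D4:**
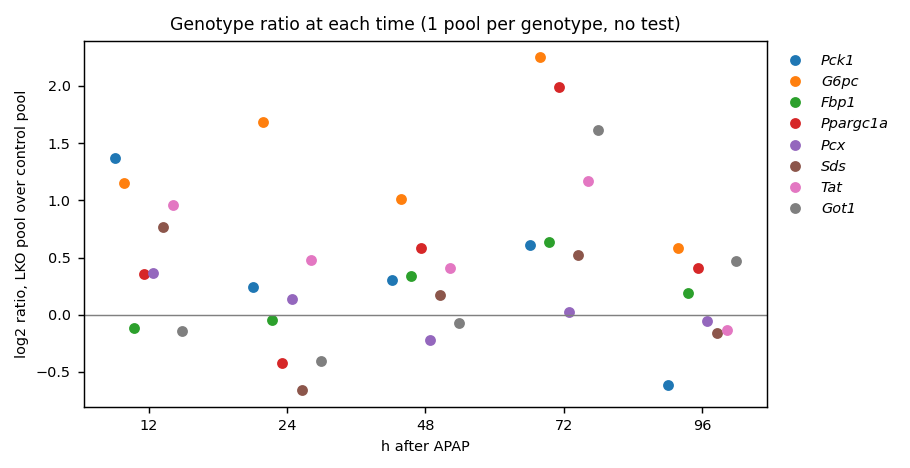
Log2 ratio of the LKO pool to the control pool for the 8 genes at each time after APAP, with 1 pool of 3 mice per genotype and time and no replicate. *G6pc* is above 0 at all 5 times, all 8 genes are above 0 at 72 h, and at 12, 24, 48 and 96 h the genes lie on both sides of 0.

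Whether APAP changed these genes differently in the genotypes, relative to 0 h, was tested as an interaction over the 18 libraries of the LKO cohort. None of the 8 members was called by edgeR or DESeq2, beside 0% of 13855 genes by edgeR and 39 genes by DESeq2, and 3 members had an unadjusted p under 0.05, as did 9.43% of genes. The log2 difference in change, LKO minus control, was 1.35 for *G6pc* (SE 0.43, adjusted p = 0.419), 1.10 for *Tat* (SE 0.51, adjusted p = 0.523) and 0.95 for *Got1* (SE 0.42, adjusted p = 0.506). Without LKO replicate 1 at 0 h these were 1.64, 1.68 and 1.12. Without control replicate 4 as well, a setting chosen after seeing the data, they were 1.84, 1.86 and 1.22, with adjusted p = 0.192, 0.192 and 0.354. Control replicate 4 was not flagged in the outlier checks given below. The higher *G6pc* of LKO after APAP is therefore a difference between pools, and its difference in response was not called.

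Of the remaining enzymes and carriers of the route, 18 were tested. Called higher and lower were 2 and 0 at 12 h and 0 and 2 at 24 h. At 48 h 2 and 1 were called, at 72 h 1 and 0, and at 96 h 0. Over all genes tested, 31, 25.6, 16.4 and 16.8% were called at 12, 24, 48 and 72 h. The 18 were below this share at 12, 24 and 72 h and near it at 48 h. *Slc37a4*, which carries glucose-6-phosphate to *G6pc* in the endoplasmic reticulum, fell at 24 h (log2 fold change -1.30, SE 0.28, adjusted p = 0.00264) and at 48 h (-0.95). *Pck2*, the mitochondrial counterpart of *Pck1*, rose at 48 h (1.23, SE 0.26, adjusted p = 0.00448) and 72 h (1.03), opposite to *Pck1*. *Mpc1*, a subunit of the mitochondrial pyruvate carrier, rose at 12 h (0.94).

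Most genes that bring in substrate fell at 24 h. Of 19 tested, 13 were called lower and 2 higher at 24 h, a share of 78.9% against 25.6% of all genes. At 12 h 5 were higher and 1 lower, a count near the 31% of all genes. At 24 h *Hpd*, the enzyme after *Tat* in tyrosine breakdown, fell by 1.86 on the log2 scale (SE 0.31), *Gls2*, the liver glutaminase, by 1.77 (SE 0.23), and *Prodh*, proline dehydrogenase, by 1.66 (SE 0.29). *Ldha*, lactate dehydrogenase A, rose by 1.60 (SE 0.21). *Sdsl*, which resembles *Sds*, rose at 12 h (1.79, SE 0.27, adjusted p = 0.000146). At 48 h 4 were lower and 1 higher, and at 72 h 1 was lower.

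Glycolysis and pyruvate oxidation, the opposing route, changed in both directions. Of 18 genes, 3 were higher and 6 lower at 12 h and 2 and 6 at 24 h. At 48 h 3 and 5 were called and at 72 h 2 and 4. The shares of all genes at these times were 31, 25.6, 16.4 and 16.8%. *Pdk4*, a kinase that shuts off pyruvate oxidation and is itself raised by fasting, rose at 12 h (log2 fold change 4.12, SE 0.59), 24 h (4.45, SE 0.61) and 48 h (3.75, SE 0.66). It was 136, 255 and 191 CPM in the control pools of those times and 80.0, 45.9 and 5.78 CPM in the LKO pools, beside 4.63 to 8.14 CPM in the 8 mice at 0 h. The rise at 48 h was thus in the control pool alone. *Pkm*, the pyruvate kinase of non-hepatocytes and dividing cells, rose from 12 h to 72 h, when its log2 fold change was 2.47 (SE 0.25).

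Among 20 regulators, 3 were called higher and 4 lower at 12 h, a count near the 31% of all genes. At 24, 48 and 72 h, 9, 8 and 7 were lower and 0 higher, beside 25.6, 16.4 and 16.8% of all genes. *Nr0b2* (SHP), a corepressor, and *Klf15*, an activator of amino acid breakdown, had fallen by 3.35 (SE 0.50) and 2.30 (SE 0.37) on the log2 scale at 12 h. *Klf15* was 42.6 CPM in the control pool and 126 CPM in the LKO pool at 12 h, beside 290 to 542 CPM in the 8 mice. At 24 h *Irs2*, an insulin receptor substrate, fell by 2.45 (SE 0.52), and the glucagon receptor *Gcgr* was called lower at 12, 24, 48 and 72 h by 0.65, 0.77, 0.80 and 0.73. *Foxo1* was called at 72 h alone (-0.90, SE 0.24), *Crtc2*, the CREB coactivator, rose at 12 h (0.67) and fell at 72 h (-0.63), and *Cebpb* was called at none of the times. Of the 9 glycogen genes, 5 were lower and 1 higher at 12 h, 3 and 1 at 24 h, 2 and 1 at 48 h, and 1 and 0 at 72 h, and *Ppp1r3g*, a glycogen-targeting subunit of protein phosphatase 1, fell by 5.34 (SE 0.72) at 24 h.

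Of 28 calls at 12 to 72 h of the genes named here from the rest of the route, substrate entry, glycolysis, regulators and glycogen, 14 were lost when 1 of the 2 pools of that time was left out. *Gcgr* lost its call at each of the 4 times without the control pool, and at 24 and 72 h also without the LKO pool. Without the control pool the calls of *Slc37a4* at 24 and 48 h, *Pck2* at 48 and 72 h, *Pdk4* at 48 h, and *Foxo1* and *Crtc2* at 72 h were lost as well, and without the LKO pool those of *Mpc1* at 12 h and *Irs2* at 24 h. That of *Pkm* at 12 h was lost without either pool. At 48 h the log2 fold changes without the control pool moved from 3.75 to 0.07 for *Pdk4*, from -0.95 to -0.52 for *Slc37a4*, from 1.23 to 0.82 for *Pck2* and from -0.80 to -0.50 for *Gcgr*. The log2 fold changes of the other lost calls moved less, as for *Gcgr* at 24 h (-0.81 and -0.72 beside -0.77), *Slc37a4* at 24 h (-1.20 beside -1.30) and *Irs2* (-2.27 beside -2.45).

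Markers of liver zones and of other cells were counted at the same times. Of all genes tested, 31, 25.6, 16.4 and 16.8% were called at 12, 24, 48 and 72 h. At 12 h the counts of the hepatocyte, macrophage and endothelial lists were near this share. The pericentral list had 5, 7, 8 and 3 of 9 genes called lower at 12, 24, 48 and 72 h and 2, *Axin2* and *Tbx3*, called higher at 12 h. Without the LKO pool of 12 h neither was called, and the log2 fold changes moved from 1.12 to -0.053 for *Axin2* and from 0.72 to 0.27 for *Tbx3*. The summed level of the list was 6778 to 12020 CPM in the 8 mice at 0 h, 779 to 8813 CPM in control pools and 2879 to 5799 CPM in LKO pools. The periportal list, from the zone where gluconeogenesis is strongest, had 1 of 8 lower and 3 higher at 12 h, 5 and 1 at 24 h, 2 and 1 at 48 h, and 2 and 0 at 72 h, and summed to 6788 to 8330 CPM in the 8 mice, 3417 to 7000 CPM in control pools and 3991 to 8654 CPM in LKO pools. Of 7 stellate cell and fibroblast markers, 3 were lower at 12 h, 2 higher and 2 lower at 24 h, and 4 and 6 higher at 48 and 72 h, among them the collagen gene *Col1a1* (log2 fold change 4.50 at 72 h). Their summed level was 133 to 247 CPM in the 8 mice and 980 and 743 CPM in the control and LKO pools of 72 h. Of 8 macrophage markers, 1 was higher and 1 lower at 12 h, 4 higher and 2 lower at 24 h, and 4 and 5 higher at 48 and 72 h, with summed levels of 124 to 326 CPM in the 8 mice, 113 to 371 CPM in control pools and 110 to 497 CPM in LKO pools. Of 6 neutrophil markers tested, 4, 4, 3 and 2 were higher at 12, 24, 48 and 72 h, with sums of at most 12.1 CPM in the 8 mice and 33.0 CPM in the pools. Of 6 endothelial markers, 1 was higher and 1 lower at 12 h, 1 higher and 2 lower at 24 h and at 48 h, and 2 were lower at 72 h, where the higher one was *Lyve1* (log2 fold change 1.42 at 12 h and 1.12 at 24 h) and the lower ones from 24 h on were *Kdr* and *Stab2*. The list summed to 189 to 241 CPM in the 8 mice and 139 to 208 CPM in the pools. Of 7 hepatocyte markers, 2 were lower at 12 h, and 1 was higher and 1 lower at 24 h. At 48 h *Trf* stayed under the fold limit (log2 fold change 0.53, adjusted p = 0.0408). At 72 h *Alb* had an unadjusted p under 0.05 without being called. The 7 hepatocyte markers summed to 59416 to 127759 CPM in the 8 mice, 110317 to 151151 CPM in control pools and 71247 to 120148 CPM in LKO pools. Of 4 cholangiocyte markers tested, *Krt19* was called lower at 48 h (log2 fold change -1.45) and *Epcam* at 72 h (-2.01), with list sums of at most 9.22 CPM in any pool. Both calls were lost without either pool of that time. Of 4 lymphocyte markers tested, *Cd3e* had an unadjusted p under 0.05 at 12, 24 and 48 h and *Cd79a* at 48 h, and neither was called. Of 12 clock genes, 2 were higher and 4 lower at 12 h, 1 and 6 at 24 h, 1 and 4 at 48 h, and 0 and 1 at 72 h. In bulk liver, fewer cells of a type and less RNA per cell cannot be told apart, and the part of these lists in the values of the members was not tested.

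**Figure D5:**
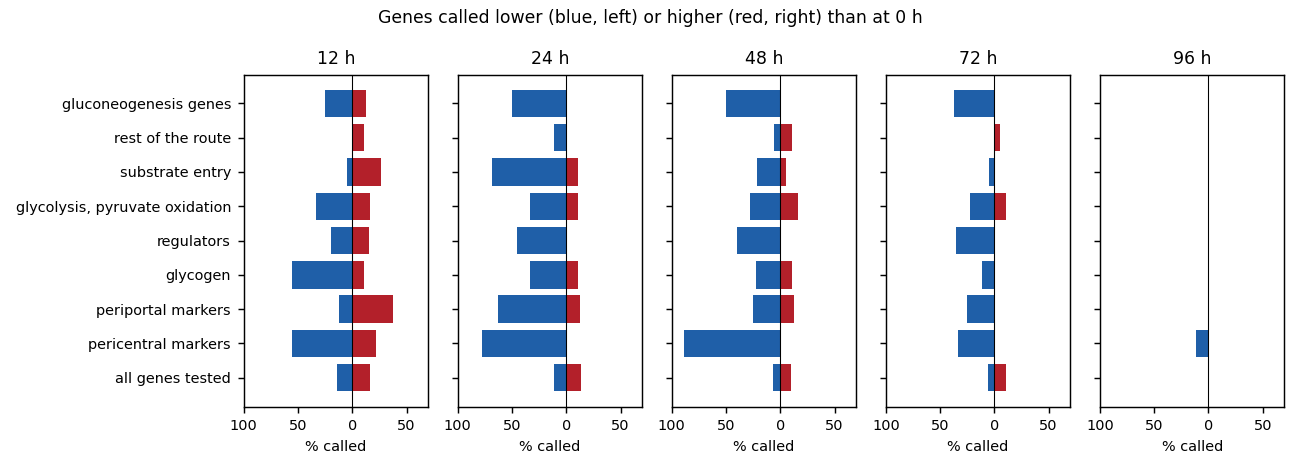
Share of each gene list called lower (left, blue) or higher (right, red) than at 0 h by hours after APAP, in percent of the list's genes tested, with all genes tested as the bottom bar. The 8 members are 50% lower at 24 and at 48 h, substrate entry genes and both zone marker lists are mostly lower at 24 h, and the rest of the route stays short.

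Across the 24 libraries the Pearson r of log2 CPM between members was above 0 in 28 of 28 pairs. The median was 0.60, within a range from 0.15 (*Pcx* and *Sds*) to 0.83 (*Pck1* and *G6pc*). No such values were taken for pairs of other genes. The libraries share genotype, time and cohort, so these values are a description. Among genes other than the members, those most alike in pattern were *Usp48* for *Pck1* (r = 0.92) and *Stat6* for *G6pc* (0.90). For *Fbp1* it was *Etnppl*, an enzyme of phosphoethanolamine breakdown (0.93), and for *Ppargc1a* it was *Cyp8b1*, a bile acid enzyme (0.89). The others were *Agpat3* for *Pcx* (0.95), *Kcnk5* for *Sds* (0.75), *Tdo2*, which opens tryptophan breakdown, for *Tat* (0.84) and *Slc25a51*, a mitochondrial NAD carrier, for *Got1* (0.89). *Sds* had the least similar partner.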

How the data were processed

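Liver RNA was sequenced in 24 libraries. Per the labels and the study's methods, the authors used Trimmomatic to trim reads and STAR to place them on mm10, and deposited counts of uniquely placed reads for every gene; the annotation release was not given in the sources used here. Of the deposited counts, those made without regard to strand were taken, since the stranded columns had near-equal totals. Reads outside genes (7.29 to 14.7% of each library) and other summary rows were left out. Two-sided quasi-likelihood tests were run on counts with edgeR 4.0.16 (R 4.3.3), TMM scaling and filterByExpr, with Benjamini-Hochberg adjustment over all genes tested. A gene was called where the adjusted p was under 0.05 and it changed at least 1.5-fold. Levels are CPM with TMM factors over the 24 libraries, with a prior count of 2 on the log2 scale. Alternatives were DESeq2 1.42.0, other scalings, filters and count columns, replicate or time blocks, and leaving out libraries. The tests were also run on simulated counts. There pools varied like single mice and no genotype by time differences were drawn. The simulation therefore cannot check the comparisons of pools with mice at 0 h. Replicates at 0 h are separate mice, and the pools have none.

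The 8 members and all gene lists were chosen with earlier results of these data known. From the lists, counts are given for the comparisons they bear on and at most 6 called genes with the largest changes per comparison are named, plus *Pck2*, *Pklr*, *Pdk4*, *Igfbp1*, *Foxo1*, *Cebpb*, *Klf15*, *Nr0b2*, *Slc37a4* and *Got2* where they bear on a member, and *Gcgr*, *Crtc2*, *Axin2* and *Tbx3*, which were added after their values were seen. Some list genes are not reported here by name. Coordinates are from GENCODE vM21 and upstream sequences from RefSeq (GRCm38.p6), which matched 7 of the 8 members. No 2 libraries of the same group at 0 h agreed within sampling noise (18 pairs, chi-square per degree of freedom at least 15.5).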

Additional observations from a re-analysis of the deposited data

Results flagged for a closer look

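In 3 of the 16 checks made (8 genes in each LKO cohort group at 0 h), 1 mouse lay beyond the distance that a Dixon test allows at the 95% level, and in each it was LKO replicate 1 at 0 h. *G6pc* was 1304 CPM in this mouse against 635 to 732 CPM in the other 3, a gap of 0.855 of the group's range. *Sds* was 684 CPM against 307 to 336 CPM (0.923 of the range). *Tat* was 5960 CPM against 1722 to 2212 CPM (0.884 of the range). Chance alone places about 1 in 20 groups beyond this limit, and the 3 values come from 1 mouse, so they are not independent of each other.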

How the results depend on the processing

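Of 1856 values of the 8 genes under the alternatives, 1731 kept their direction and side of the threshold, 49 lost a call, 24 gained one and 52 changed sign. Scaling by library size alone, in place of TMM, shifted log2 fold changes by 0.14 at 24 h, 0.19 at 48 h, 0.11 at 72 h and 0.14 between LKO and control at 0 h; the share of calls that were higher went from 54.3 to 69.2% at 24 h, 60.2 to 81.6% at 48 h, 65.6 to 80.7% at 72 h, 43.7 to 56.7% for HKO and 44.3 to 71.1% for LKO against control pools. The cause of the shifts below was not tested.

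For HKO against Null, genes called went from 119 to 331 (DESeq2), 255 (at least 1 count) and 264 (replicate block), and members called from 0 to 1 under each of these and under either stranded count. Replicate numbers did not pair the mice: same-numbered mice correlated at 0.122, -0.0356 and 0.0648 in the HKO cohort and from -0.315 to 0.181 in the LKO cohort. The pools carry no replicate numbers and were paired by time. For LKO against control at 0 h, DESeq2 called 3 genes, and 2 were called without control replicate 4 and LKO replicate 1 (below, without both mice). This setting was chosen after seeing the data, and control replicate 4 was not flagged in the outlier checks. For LKO minus HKO the counts were 21 (DESeq2) and 2 (at least 1 count). For the LKO against control pools, 70 genes became 608 (DESeq2), 45 (library size), 337 (at least 1 count), 34 (at least 10 counts), 123 (second stranded count), and 0 genes and 0 members without the time block. At 96 h, 64 became 338 with 2 members (DESeq2), 41 (library size), 28 (either stranded count), 35 (genotype left out) and 30 (without both mice). At 72 h, 2327 became 1519 (at least 10 counts), at 48 h members called went from 4 to 2 (library size, without *Fbp1* and *Pcx*), and the interaction gave 39 (DESeq2) and 2 (at least 1 count).

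Leaving out 1 library, or 1 time for the pairs, gave 54 to 297 genes and 0 to 3 members for HKO, 0 to 1 genes for LKO at 0 h, 0 to 3 genes for LKO minus HKO, 8 to 172 genes and 0 to 1 members for the pools and 0 to 2 genes for the interaction. Against 0 h it gave 2151 to 4487 genes and 1 to 4 members at 12 h, 1177 to 3720 and 2 to 4 at 24 h, 507 to 2507 and 0 to 4 at 48 h, 514 to 2532 and 0 to 5 at 72 h, and 7 to 113 and 0 to 1 at 96 h.

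Log2 fold changes that changed sign were those of *Ppargc1a* at 12 h to 0.060 (first stranded count) and 0.070 (without both mice), *Sds* at 96 h to 0.11 (without both mice), *Got1* for LKO minus HKO to 0.042 (library size), and at 0 h between LKO and control *G6pc* to 0.13, *Pcx* to 0.10 and *Sds* to 0.011 (library size), *G6pc* to 0.027 (replicate block) and *Pcx* to 0.029 (without both mice). Leaving out libraries gave at 12 h -0.13 to 0.066 for *Ppargc1a*, -0.23 to 0.62 for *Sds*, -0.86 to 0.13 for *Tat* and -0.053 to 1.82 for *Axin2*, at 24 h -0.96 to 3.04 for *Acta2* (*Axin2* and *Acta2* were called with all libraries, at 1.12 and 1.95), at 48 h -0.052 to 0.19 for *Sds*, at 72 h -1.71 to 0.038 for *Ppargc1a* and -0.57 to 0.0033 for *Sds*, and at 96 h -0.13 to 0.12 for *Sds*. It gave -0.013 to 0.19 for *Pcx* and -0.050 to 0.53 for *Ppargc1a* in the interaction, -0.31 to 0.046 for *G6pc* in HKO, and -0.16 to 0.42 for *G6pc* and -0.46 to 0.21 for *Got1* for LKO minus HKO. At 0 h in LKO it gave -0.052 to 0.11 for *Fbp1*, -0.30 to 0.29 for *G6pc*, -0.15 to 0.062 for *Pcx* and -0.48 to 0.067 for *Sds*, and for the pools -0.050 to 0.46 for *Got1*, -0.029 to 0.12 for *Pcx* and -0.028 to 0.33 for *Sds*. Depth did not limit the members: the lowest level, that of *Ppargc1a*, exceeded 3 reads in every library.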

Other observations

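At 12 h after APAP, *Fgf21*, a hormone of the fasted liver, rose by 2.96 on the log2 scale (SE 0.60, adjusted p = 0.00147 by edgeR's quasi-likelihood test with Benjamini-Hochberg adjustment), as did *Igfbp1*, which shares insulin-repressed regulation with *G6pc* (log2 fold change 1.12, SE 0.39, adjusted p = 0.0352), and *Cpt1a*, which admits fatty acids to mitochondria (0.81, SE 0.22, adjusted p = 0.00889). Of the 10 genes of the fasting and feeding list, 3 were called higher and 1 lower at 12 h, and 0 higher and 2 lower at 24 h, shares of 40% and 20% beside 31% and 25.6% of all genes tested. Of the 6 glucocorticoid-responsive genes, 3 were called higher and 1 lower at 12 h, a share of 66.7%: *Mt2* (3.26, SE 0.95), *Sgk1* (1.63, SE 0.29) and *Per1* (1.43, SE 0.22) rose and *Tsc22d3* fell by 2.48 (SE 0.33). At 24, 48 and 72 h, 2, 1 and 0 of these 6 were higher and 1, 0 and 1 lower. Of the 7 genes named here, 5 lost their call without 1 of the 2 pools: *Igfbp1* (log2 fold change 0.43) and *Sgk1* (1.20) without the control pool, *Fgf21* (2.34) and *Cpt1a* (0.21) without the LKO pool, and *Mt2* without the control pool (3.56) or the LKO pool (2.90). With both pools these log2 fold changes were 1.12 for *Igfbp1*, 1.63 for *Sgk1*, 2.96 for *Fgf21*, 0.81 for *Cpt1a* and 3.26 for *Mt2*.

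Over the 5 pairs of pools, *Fasn*, the fatty acid synthase that feeding induces, was the 1 gene of the fasting and feeding list called between genotypes, higher in LKO (log2 fold change 1.28, SE 0.21, adjusted p = 0.0371). The call was lost without the time block (adjusted p = 0.764) and without the pools of 12, 48 or 72 h (log2 fold change 1.22 to 1.39, adjusted p = 0.0743 to 0.123). *Pklr*, the liver pyruvate kinase that opposes *Pck1*, was higher in LKO at 5 of 5 times but was not called (0.91, SE 0.18, adjusted p = 0.06).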
